A study of Homo sapiens with 6 samples.

Results

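The mRNAs of 8 transcription factors of the interferon regulatory factor (IRF) and signal transducer and activator of transcription (STAT) families, namely IRF1, IRF2, IRF3, IRF5, IRF7, IRF9, STAT2 and STAT3, were examined in HEC-1-A cells treated with SMIP34. The genes were taken by name from the 23228 genes for which reads had been counted, and all 8 were present and passed the filter on low counts that left 13408 genes. HEC-1-A is a human endometrial adenocarcinoma line, and SMIP34 is a small molecule that inhibits PELP1, a scaffold protein of nuclear receptor signaling and of ribosome maturation. The control group was 3 libraries from cells kept in McCoy's 5A medium with serum, which received vehicle according to the methods of the study, and the treated group was 3 libraries from cells given SMIP34 at 20 µM for 24 h. All 6 libraries came from the same line, for which the labels name no engineered allele. The labels do not say whether replicates were separate cultures, so that p-values measure the spread between these libraries, which may be technical. Library totals ran from 19562711 to 22014835 counts, and levels are given as CPM, that is, counts scaled to library size with normalization factors of 0.988 to 1.01.

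STATs wait in the cytoplasm until a receptor-bound JAK kinase phosphorylates them, upon which they pair up, enter the nucleus and bind GAS elements. STAT2 and IRF9 are subunits of ISGF3, the complex that type I interferons use to switch on genes with an ISRE element, while STAT3 is the main effector of the IL6 family of cytokines and is often active in carcinomas. IRF3 and IRF7 are activated by the kinases TBK1 and IKBKE after sensing of viral nucleic acid, IRF5 acts below Toll-like receptors, IRF1 is an activator that interferon gamma and NF-kB signaling induce at the level of its own transcription, and IRF2 binds the sites of IRF1 and often opposes it.

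Since IRF1 is regulated through its own promoter, the promoters of these genes were read from RefSeq (GRCh38.p14), which had an entry for IRF1, IRF5, IRF9, STAT2 and STAT3. Over the 250 bases before each start, the GAS core TTCNNNGAA, the ISRE core (GAAA, any 2 bases, GAAA) and the kappaB consensus of NF-kB were searched on both strands. The window of IRF1 (chr5:132490774-132491023, minus strand) and that of IRF9 (chr14:24161015-24161264, plus strand) are shown, the first because it belongs to the member that changed most and the second because it holds the only other GAS core among these 5. Both run 5′ to 3′ and end at the base before the start, and capitals mark the matches.
IRF1: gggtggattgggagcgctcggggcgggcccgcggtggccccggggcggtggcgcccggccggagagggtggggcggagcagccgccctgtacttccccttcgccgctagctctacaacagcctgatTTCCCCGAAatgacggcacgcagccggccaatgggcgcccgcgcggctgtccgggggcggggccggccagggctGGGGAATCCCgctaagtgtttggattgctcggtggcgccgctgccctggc
IRF9: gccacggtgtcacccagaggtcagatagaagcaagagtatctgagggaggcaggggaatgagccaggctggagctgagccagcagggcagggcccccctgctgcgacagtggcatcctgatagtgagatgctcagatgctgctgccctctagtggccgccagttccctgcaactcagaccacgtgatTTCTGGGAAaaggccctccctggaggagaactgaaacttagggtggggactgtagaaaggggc
In IRF1 the GAS core TTCCCCGAA lies at bases -124 to -116 and the kappaB match GGGGAATCCC at bases -50 to -41, counted back from the start, and in IRF9 the GAS core TTCTGGGAA lies at bases -63 to -55. All of these read as a match on either strand, and none overlaps another. Of all 35116 RefSeq promoter windows of this length, 6.57% held a GAS core, 9.96% the kappaB consensus and 0.541% both, as IRF1 did. None of the 5 members had an ISRE core in the window, a motif found in 3.02% of all promoters, and the windows of IRF5 (4 starts), STAT2 and STAT3 had no match to any of the motifs searched. A match in this search is a description of the sequence and was not tested for binding.

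SMIP34-treated cells had more mRNA of 5 of the 8 members, IRF1, IRF2, IRF5, IRF7 and STAT3, by the quasi-likelihood test of edgeR with the adjusted p-value limited to 0.05. None was lower by that test, by DESeq2 or by limma voom, and IRF9 alone of those with a log2 fold change below 0 had an unadjusted p under 0.05 (0.0494). Only IRF1 also passed an absolute log2 fold change of 0.5. For comparison, 34.6% of all 13408 genes tested differed between the groups, with 17.4% of all genes higher and 17.2% lower, and 3.31% passed the fold limit as well, 1.44% higher and 1.87% lower. The median log2 fold change was 0.20 over the 8 members and -0.0022 over all genes. The treated and control libraries did not overlap for 6 of the 8 members (5 higher, and IRF9 lower), against 44.5% of all genes tested, 22.6% higher and 21.9% lower. The members, and the gene lists below, were chosen with earlier results of these data known. Their comparisons with all genes are therefore not independent of that choice. A bulk library does not tell more mRNA per cell from more cells that express the gene.

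**Figure D1:**
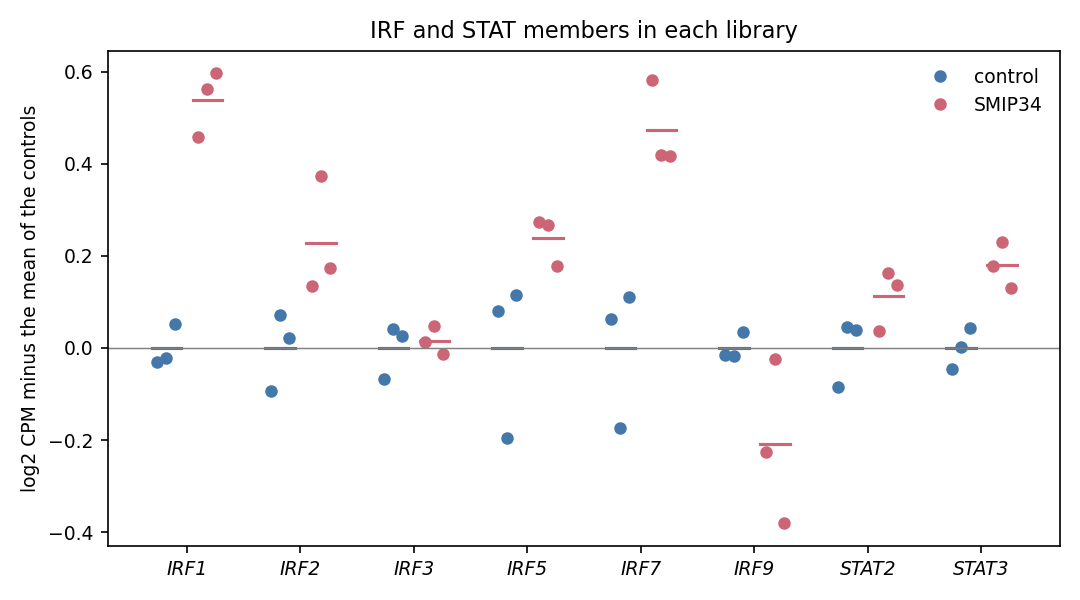
The mRNA level of each member in each library as log2 CPM minus the mean of the 3 controls, with points for libraries and bars for group means. All 3 SMIP34 points lie above all 3 control points for IRF1, IRF2, IRF5, IRF7 and STAT3 and below them for IRF9, and they overlap for IRF3 and STAT2.

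IRF1 (chromosome 5 of hg19, from 131817301 to 131826465, minus strand) was the member with the largest change. Its level was 23.7, 23.9 and 25.2 CPM in control replicates 1, 2 and 3 and 33.4, 35.9 and 36.7 CPM in SMIP34 replicates 1, 2 and 3. Each treated library exceeded each control by more than the controls differed among themselves. IRF1 rose by 45.5%, a log2 fold change of 0.54 (standard error 0.058, 95% confidence interval 0.42 to 0.66, edgeR quasi-likelihood adjusted p = 4.97e-08), which placed it 243rd among the 13408 genes ordered from the largest increase. The log2 fold change stayed between 0.51 and 0.58 in all 18 fits and passed the test in each. The study lists RT-qPCR primers for IRF1 and reports that the p53 and apoptosis genes it measured by RT-qPCR were elevated. Genes for RT-qPCR were picked from these libraries, so the choice of IRF1 is not independent of its rise here. Exons of C5orf56 overlap those of IRF1 on the opposite strand, and the reads were counted by strand.

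IRF2 (chromosome 4, from 185308876 to 185395726), which competes with IRF1 for the same sites, was at 19.8, 22.3 and 21.5 CPM in the controls and at 23.2, 27.5 and 23.9 CPM with SMIP34. The increase was led by SMIP34 replicate 2, and the other treated libraries lay just above the highest control. The log2 fold change was 0.23 (standard error 0.071, 95% confidence interval 0.082 to 0.37, edgeR quasi-likelihood adjusted p = 0.0136). The call did not hold without SMIP34 replicate 2 (log2 fold change 0.15, adjusted p = 0.137) or without control replicate 1 (0.18, adjusted p = 0.0748), with a range of 0.00339 to 0.137 over the 18 fits of edgeR, DESeq2 and limma voom.

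The amount of IRF1 relative to its competitor IRF2 was compared within each library, with levels expressed as CPM per kilobase of exon. The ratio was 0.770, 0.691 and 0.753 in the controls and 0.923, 0.840 and 0.989 with SMIP34. Treated libraries were all above the controls, with means of 0.738 ± 0.0415 and 0.918 ± 0.0746 (SD, n = 3 each). An exact two-sided permutation test over the 6 libraries gave p = 0.1, the smallest value that 3 against 3 libraries allow. Fold changes in these libraries followed exon length, as described below, and dividing by length does not remove that trend. With offsets that remove it, the log2 fold changes were 0.53 for IRF1 and 0.26 for IRF2. Of the summed per-length level of the 6 IRF members, IRF1 made up 7.25 ± 0.197% in control and 9.95 ± 0.564% in treated libraries (SD, n = 3 each), a difference of 2.70 percentage points with the same smallest p of 0.1 in the exact permutation test. IRF3 was by far the most abundant, with 70.5 ± 0.772% in control and 67.2 ± 0.805% in treated libraries (SD, n = 3 each, exact permutation p = 0.1). Its lower share was not a fall of IRF3 itself, which averaged 66.5 CPM per kilobase in control and 67.2 in treated libraries. The sum of the 6 went from 94.2 to 99.96 CPM per kilobase.

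**Figure D2:**
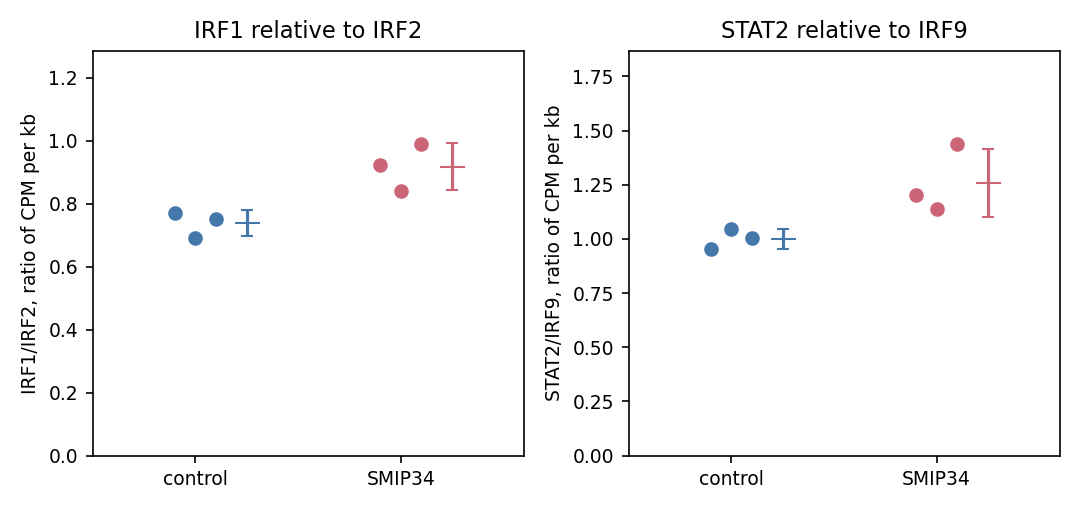
Ratios of per-length mRNA levels (CPM per kilobase of exon, linear axes from 0) in each library, of IRF1 to IRF2 on the left and of STAT2 to IRF9 on the right, with the mean and SD of each group beside its 3 points. The IRF1 to IRF2 ratio ran from 0.691 to 0.770 in controls and from 0.840 to 0.989 with SMIP34, and that of STAT2 to IRF9 from 0.953 to 1.05 and from 1.14 to 1.44. Neither ratio was corrected for the trend of fold changes with exon length.

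IRF7 (chromosome 11, from 612555 to 615999) is the factor that amplifies interferon production, and it was the least abundant member. It was at 2.83, 2.39 and 2.94 CPM in the controls and at 4.10, 3.65 and 3.65 CPM with SMIP34, from 52 to 61 counts and from 79 to 90 counts. The groups did not overlap. The log2 fold change of 0.49 came close to that of IRF1 but had the widest error of the members (standard error 0.17, 95% confidence interval 0.15 to 0.83, edgeR quasi-likelihood adjusted p = 0.0240). It did not pass with DESeq2 (adjusted p = 0.0775), without control replicate 2 (log2 fold change 0.40, adjusted p = 0.111) or without SMIP34 replicate 1 (0.43, adjusted p = 0.0939), and the adjusted p lay between 0.0159 and 0.111 over the 18 fits.

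IRF5 (chromosome 7, from 128577994 to 128590088), best known from myeloid and B cells, was at 12.3, 10.1 and 12.6 CPM in the controls and at 14.04, 13.96 and 13.1 CPM with SMIP34. Control replicate 2 was the low library of its group, and the other controls lay close below the treated ones. The log2 fold change was 0.24 (standard error 0.090, 95% confidence interval 0.054 to 0.43, edgeR quasi-likelihood adjusted p = 0.0407). This was the least stable call of the 5. Without control replicate 2 the log2 fold change was 0.14 (adjusted p = 0.262), and the call was also lost without SMIP34 replicate 1 (0.108), without SMIP34 replicate 2 (0.107), with DESeq2 (0.110) and with upper-quartile scaling (0.0532), with adjusted p between 0.0188 and 0.262 over the 18 fits of edgeR, DESeq2 and limma voom.

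IRF3 (chromosome 19, from 50162826 to 50169132), the factor that turns on interferon beta when the RIG-I or STING pathways fire, was at 118, 127 and 126 CPM in the controls and at 125, 128 and 123 CPM with SMIP34. The groups overlapped throughout. The log2 fold change was 0.015 with a 95% confidence interval of -0.057 to 0.086 (edgeR quasi-likelihood adjusted p = 0.788), so that a change of the size seen for IRF1 lay outside the interval. Activation of IRF3 takes place by phosphorylation and was not measured by these libraries. Exons of BCL2L12 overlap those of IRF3 on the opposite strand, and 2 of the 6 IRF3 counts held fractions of reads shared between places or genes.

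Neither STAT2 nor IRF9, the partners in ISGF3, passed the test. STAT2 (chromosome 12, from 56735382 to 56754037) was at 28.2, 30.9 and 30.8 CPM in the controls and at 30.7, 33.5 and 33.0 CPM with SMIP34, with SMIP34 replicate 1 inside the range of the controls. Its log2 fold change was 0.11 (standard error 0.057, 95% confidence interval -0.0076 to 0.23, edgeR quasi-likelihood adjusted p = 0.142). IRF9 (chromosome 14, from 24630422 to 24635774) was the only member with a log2 fold change below 0, at 10.9, 10.9 and 11.3 CPM in the controls and 9.43, 10.9 and 8.46 CPM with SMIP34. The controls of IRF9 lay close together, whereas SMIP34 replicate 2 was next to the lowest control and replicate 3 well below. The log2 fold change was -0.20 (standard error 0.099, 95% confidence interval -0.41 to -0.00057, edgeR quasi-likelihood adjusted p = 0.114), and it passed only without SMIP34 replicate 2 (-0.30, adjusted p = 0.0376), with a range of 0.0376 to 0.418 over the 18 fits. Within libraries, the per-length ratio of STAT2 to IRF9 was 0.953, 1.05 and 1.004 in the controls and 1.20, 1.14 and 1.44 with SMIP34, again without overlap (exact permutation p = 0.1, the smallest possible). This ratio too still holds the trend of fold changes with exon length, and the exons of STAT2 are longer than those of IRF9. With offsets that remove the trend, the log2 fold changes were 0.080 for STAT2 and -0.14 for IRF9.

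STAT3 (chromosome 17, from 40465343 to 40540513) was at 110, 114 and 117 CPM in the controls and at 129, 134 and 125 CPM with SMIP34. Every treated library was above every control. The increase was 13.3%, a log2 fold change of 0.18 (standard error 0.035, 95% confidence interval 0.11 to 0.25, edgeR quasi-likelihood adjusted p = 0.000255). It passed in all 18 fits, with log2 fold changes from 0.15 to 0.20.

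**Figure D3:**
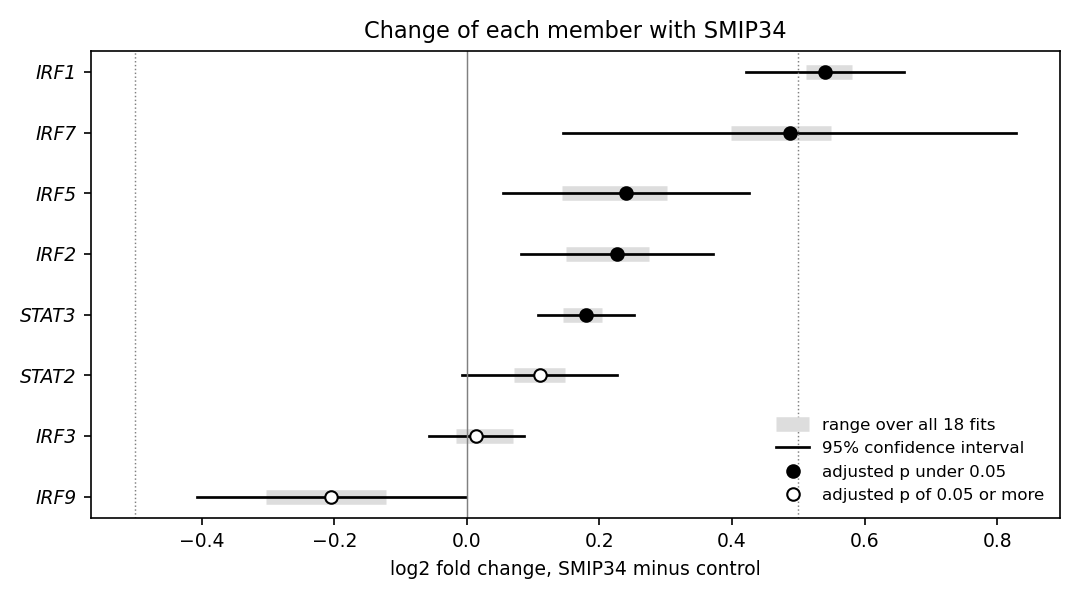
Log2 fold change of each member between SMIP34 and control libraries (points, filled where the adjusted p-value was under 0.05), with its 95% confidence interval (line) and the range over 18 fits (grey bar). The dotted lines mark the fold limit of 0.5, which only the point of IRF1 passed, at 0.54, with IRF7 next to it at 0.49 and IRF9 alone below 0 at -0.20.

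Fold changes in these libraries followed exon length, with medians of -0.10 at the short end of 10 equal groups and 0.12 at the long end, and the members were set against genes of like exon length. IRF3 and IRF7 fell in the group with a median log2 fold change of -0.056, IRF9 in the group with -0.073, IRF2 in that with -0.032, IRF1 and IRF5 in that with 0.014 and STAT2 and STAT3 in that with 0.041. The share of genes called higher was 17.5% in the group of IRF1 and IRF5, 10.6% in that of IRF2, 7.38% in that of IRF3 and IRF7 and 24.2% in that of the STATs. In the group of IRF9, 6.11% of genes were called higher and 28.0% lower, against 17.4% and 17.2% of all genes. With offsets that remove the trend of each library with length, the same 5 members passed as before, with log2 fold changes of 0.53 for IRF1, 0.53 for IRF7, 0.26 for IRF2, 0.24 for IRF5 and 0.15 for STAT3 (edgeR quasi-likelihood adjusted p = 0.000733 for STAT3), and IRF9 was at -0.14 (adjusted p = 0.290).

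When levels were expressed per length, the order of the members in control cells was IRF3, at 66.5 ± 2.70 CPM per kilobase, STAT3 at 22.9 ± 0.721, IRF2 at 9.27 ± 0.543, IRF1 at 6.83 ± 0.218, STAT2 at 6.59 ± 0.333, IRF9 at 6.58 ± 0.137, IRF5 at 3.79 ± 0.434 and IRF7 at 1.27 ± 0.135 (SD, n = 3 each). The libraries of IRF1, STAT2 and IRF9 overlapped, so that these neighbours could not be ordered, whereas the other neighbours did not overlap. IRF3 stood above 89.8% of the genes tested and IRF7 above 15.4%. With SMIP34 the order was the same, but IRF1 at 9.94 ± 0.496 CPM per kilobase had left STAT2 (7.12 ± 0.326) and now overlapped with IRF2 (10.9 ± 0.994), and STAT2 and IRF9 (5.71 ± 0.721) no longer overlapped (SD, n = 3 each). The per-length levels of all 8 members summed to 124 ± 4.18 CPM per kilobase in control and 133 ± 4.16 in treated libraries (SD, n = 3 each, exact permutation p = 0.1).

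**Figure D4:**
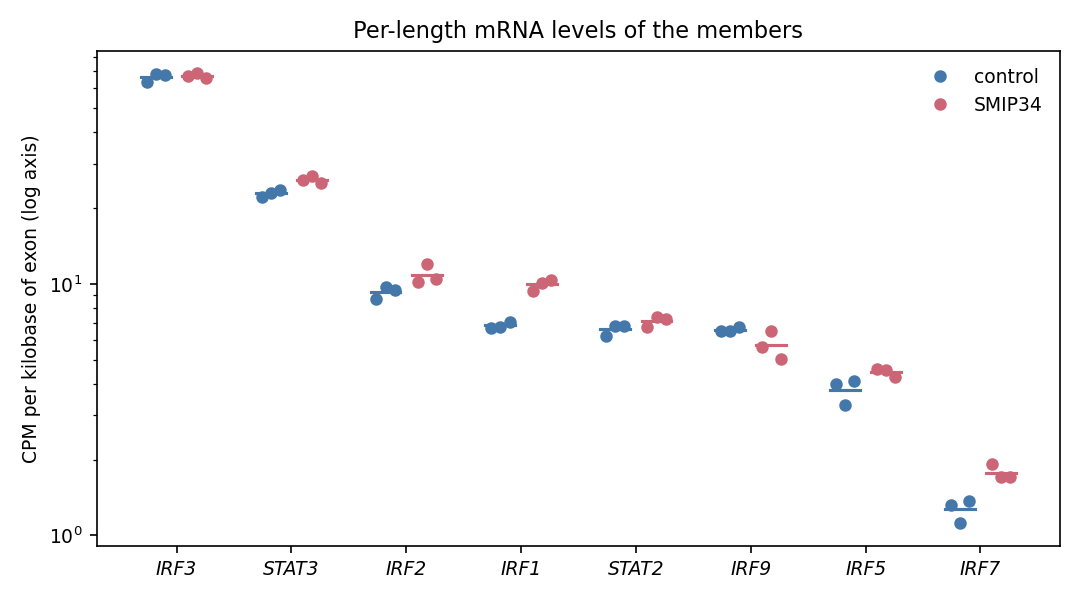
Per-length mRNA level of each member in each library, in CPM per kilobase of exon on a log axis, ordered by the control mean. The members span from 66.5 (IRF3) to 1.27 CPM per kilobase (IRF7) in control cells, and the IRF1 points of treated cells lie beside those of IRF2, while in control cells they lie beside those of STAT2 and IRF9.

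Of the other family genes described here, STAT6 and STAT5B were expressed. STAT6, which carries signals of IL4 and IL13, was at 216, 217 and 220 CPM in the controls and 193, 194 and 196 CPM with SMIP34. All 3 treated libraries lay below all 3 controls, and STAT6 fell with a log2 fold change of -0.16 (edgeR quasi-likelihood adjusted p = 6.4e-05), with exons of NAB2 on the opposite strand. STAT5B had a log2 fold change of 0.047 (adjusted p = 0.492). IRF4, IRF8, STAT4 and STAT5A had at most 5 counts in any library and were not tested. STAT3 lies 1382 bases from STAT5A, so that an expressed and a nearly silent gene of the family stand side by side.

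Upstream of the members, hardly any interferon mRNA was counted. Of 12 interferon genes, 7 had no count in any library, which allows up to 0.136 to 0.153 CPM per library, and the other 5, IFNB1, IFNE, IL28A, IL28B and IL29, had at most 7 counts in a library and between 4 and 13 in all per library, with the groups overlapping. IL6 had a count in 1 library only. LIF, which signals to STAT3, was well expressed at 103, 106 and 107 CPM in the controls and 102, 99.6 and 106 CPM with SMIP34 (log2 fold change -0.043, edgeR quasi-likelihood adjusted p = 0.371). IL11 rose from 1.06 to 1.82 CPM (log2 fold change 0.77, adjusted p = 0.0223), a call that was lost with DESeq2 (0.0668), without control replicate 3 (0.121) and without SMIP34 replicate 1 (0.103). CTF1 fell from 5.31 to 3.17 CPM (log2 fold change -0.74, adjusted p = 0.000317). Both are ligands of the IL6 family.

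Of 14 receptor genes of the interferon and IL6 families, 11 were tested, and 3 were higher and 0 lower by the quasi-likelihood test of edgeR, with a median log2 fold change of 0.15. The higher genes were 27.3% of those tested, against 17.4% of all genes, which were not matched for exon length. DESeq2 and limma voom also called 0 lower, and 0 of the receptor genes were lower at an unadjusted p under 0.05. IL6ST, which encodes the shared signaling chain gp130, rose from 113, 115 and 119 CPM to 142, 139 and 134 CPM (log2 fold change 0.26, adjusted p = 1.33e-06). It passed in all 18 fits, with log2 fold changes from 0.16 to 0.28, and from 0.24 to 0.28 with a library left out. IL28RA, the receptor chain for interferon lambda, rose from 9.89 to 13.1 CPM (log2 fold change 0.41, adjusted p = 0.000826). Among the 4 JAK kinases, JAK1, on which all interferon receptors depend, had the largest change, from 3.14, 3.50 and 3.66 CPM to 6.52, 6.94 and 6.70 CPM (log2 fold change 0.96, standard error 0.13, adjusted p = 3.14e-06). Its per-length level was nevertheless low, 0.679 CPM per kilobase in control and 1.33 in treated cells, beside 23.9 and 24.0 for TYK2. JAK2 had a log2 fold change of 0.16 (adjusted p = 0.0917), JAK3 of 0.27 (adjusted p = 0.45) and TYK2 of 0.0073 (adjusted p = 0.904).

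Of the 20 sensors, adaptors and kinases that lead to IRF3 and IRF7, 18 were tested, and 6 were higher and 3 lower (median log2 fold change 0.14). These were 33.3% and 16.7% of the list, against 17.4% and 17.2% of all genes. TICAM2, an adaptor of Toll-like receptors, rose from 16.3, 16.2 and 15.5 CPM to 21.6, 21.6 and 20.8 CPM (log2 fold change 0.41, edgeR quasi-likelihood adjusted p = 3.42e-05), and IFIH1, the RNA sensor MDA5, from 31.6 to 41.6 CPM (log2 fold change 0.40, adjusted p = 7.33e-07). TMEM173, which encodes STING, fell from 5.68 to 4.12 CPM (log2 fold change -0.46, adjusted p = 0.0107), though not without SMIP34 replicate 2 (0.0543) or replicate 3 (0.0506), and TLR3, a sensor of double-stranded RNA, from 22.3 to 18.6 CPM (log2 fold change -0.26, adjusted p = 0.00401). Of 17 inhibitors of JAK-STAT signaling tested, 2 were higher (SOCS7 and PTPN11, and 1 to 5 genes over the other fits) and 1 lower (USP18), or 11.8% and 5.88% of the list. PTPN11 passed in 11 of the 18 fits and USP18 in 7. SOCS3, the feedback inhibitor that STAT3 induces, was at 2.52, 2.90 and 2.26 CPM in the controls and 2.83, 3.47 and 3.24 CPM with SMIP34 (log2 fold change 0.31, adjusted p = 0.195). The count of lower inhibitors was 0 in 11 of the 17 other fits, DESeq2 among them.

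Among 29 tested genes that are listed as STAT3 targets, 11 were higher and 7 lower (median log2 fold change 0.11), or 37.9% and 24.1%, against 17.4% and 17.2% of all genes. BCL6, a repressor, rose from 5.77, 4.87 and 5.34 CPM to 10.0, 8.28 and 8.74 CPM (log2 fold change 0.76, edgeR quasi-likelihood adjusted p = 1.47e-05), and the kinases PIM3 (log2 fold change 0.52) and PIM1 (0.47) and the NF-kB cofactor BCL3 (0.52) rose with it. FGB, which encodes the beta chain of fibrinogen, had a log2 fold change of -0.77. CEBPB, a factor of the acute phase response, had one of -0.34, from 77.8, 78.2 and 80.8 CPM to 63.0, 61.0 and 63.0 CPM (adjusted p = 1.34e-07). The count of lower STAT3 targets was 4 with DESeq2 and 4 without control replicate 2 or without SMIP34 replicate 3.

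Of 32 tested genes of the ISGF3 response, 14 were higher and 5 lower (median log2 fold change 0.11), or 43.8% and 15.6%, the latter near the 17.2% of all genes. The increases were led by OASL, an antiviral protein of the OAS family, which went from 4.58, 4.41 and 5.15 CPM to 13.6, 13.1 and 12.6 CPM (log2 fold change 1.47, edgeR quasi-likelihood adjusted p = 3.21e-11), and by RSAD2, which encodes viperin, from 16.8 to 36.2 CPM (log2 fold change 1.10, adjusted p = 1.61e-13). IFIT1 rose from 48.5 to 71.8 CPM (log2 fold change 0.57) and the ubiquitin-like modifier ISG15 from 70.4 to 101 CPM (log2 fold change 0.53). IFITM1 fell from 1.51 to 0.842 CPM (log2 fold change -0.84, adjusted p = 0.0226) and IFI35 from 25.4 to 22.4 CPM (-0.18, adjusted p = 0.0272). IFITM1 passed in 13 of the 18 fits and IFI35 in 12, and both calls were lost with DESeq2 and without control replicate 1 or 2 or SMIP34 replicate 2 or 3. The count of 5 lower genes was between 1 and 5 over the other fits, at 1 with DESeq2 and 2 with length offsets, and was 1 without control replicate 2, without SMIP34 replicate 2 or without SMIP34 replicate 3, 2 without control replicate 1 and 3 without SMIP34 replicate 1.

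Of 30 tested genes of antigen presentation and of the interferon gamma response, listed as IRF1 targets, 7 were higher and 5 lower, and 18 did not pass (median log2 fold change 0.074). These shares of 23.3% and 16.7% were near the 17.4% and 17.2% of all genes. B2M, the light chain of class I MHC molecules, averaged 1813 ± 55.3 CPM in the controls and 1769.8 ± 34.7 CPM with SMIP34 (SD, n = 3 each), and had a log2 fold change of -0.035 (edgeR quasi-likelihood adjusted p = 0.326) that turned to 0.054 with length offsets (adjusted p = 0.026), and the chemokine gene CXCL10 had no count in any library. PSMB8, PSMB9, TAP1, TAPBP and HLA-B belong to the region of chromosome 6 that hg19 holds in several haplotypes, and their counts are uncertain. The immunoproteasome subunit genes PSMB9 and PSMB8 had log2 fold changes of -1.10 and -0.83. That of PSMB9 was -0.33 without control replicate 2 (adjusted p = 0.398), the library at 5.20 CPM beside 1.80 and 1.64 CPM in the other controls, and that of PSMB8 was -0.55 without SMIP34 replicate 1 (adjusted p = 0.0195). Neither passed with DESeq2 (adjusted p = 0.158 and 0.0733). The peptide transporter gene TAP1 had a log2 fold change of 0.24 (adjusted p = 0.428), and TAPBP, the transporter's partner, had one of 0.41 that passed in 13 of the 18 fits. HLA-B was at 1.96, 1.24 and 1.15 CPM in the controls and 1.28, 1.20 and 12.2 CPM with SMIP34, and its log2 fold change of 1.76 became -0.21 without SMIP34 replicate 3. The count of higher IRF1 targets was 4 without that library and 4 with DESeq2.

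**Figure D5:**
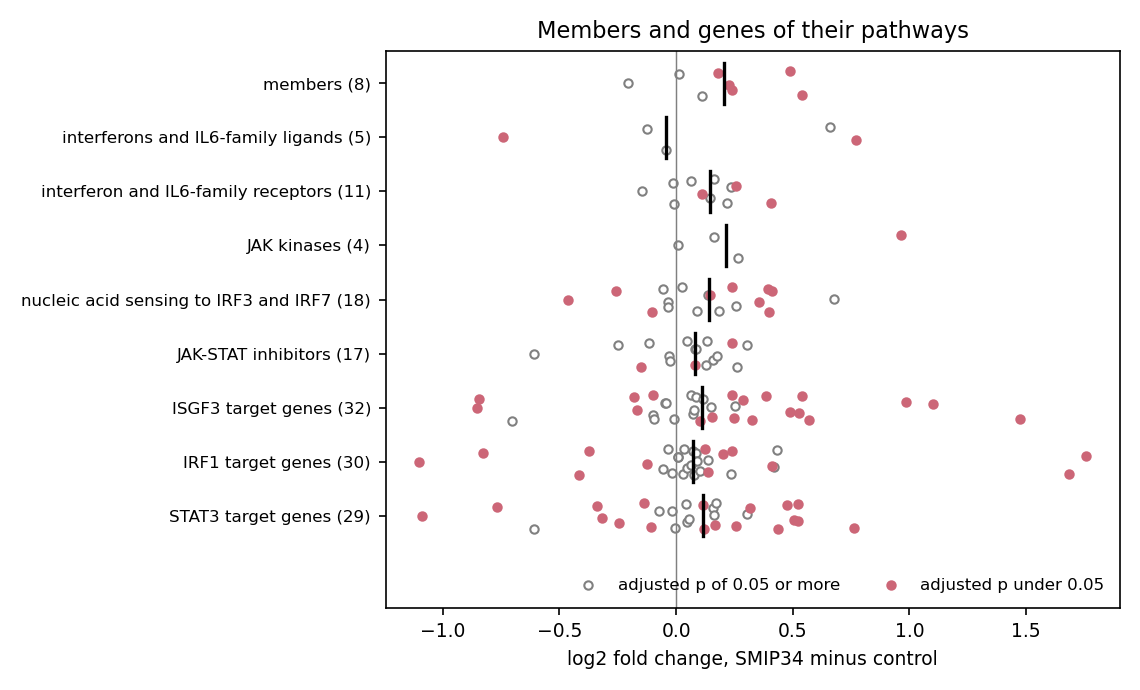
Log2 fold changes of the 8 members and of the genes tested in lists of their pathways (points, filled where the adjusted p-value was under 0.05), with the median of each list as a bar and its number of tested genes in brackets. The medians lie between -0.043 (ligands) and 0.21 (JAK kinases), and the lists of ISGF3, IRF1 and STAT3 target genes spread to both sides of 0.

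The labelled cell type was checked on its markers. The 8 epithelial markers, KRT8, KRT18, EPCAM and PAX8 among them, summed to between 3954 and 4077 CPM in the controls and between 3889 and 3921 CPM with SMIP34, without overlap. Of them, KRT8, KRT19, PAX8 and MUC1 were lower and CLDN4 was higher. These were 50.0% and 12.5% of the list, against 17.2% and 17.4% of all genes. MUC1 passed in 14 of the 18 fits. The part of these changes in the results was not tested. The 13 leukocyte markers, relevant to IRF5, summed to between 1.93 and 2.69 CPM in the controls and between 3.19 and 3.79 CPM with SMIP34, with 6 of them, CD3E among these, at 0 in every library and PTPRC with 1 count in all. Within this list CSF1R was higher with SMIP34 (from 1.32 to 2.13 CPM, with overlapping groups and a pass in 14 of the 18 fits, edgeR quasi-likelihood adjusted p = 0.0323), and its part in the results was not tested. The 8 stromal and endothelial markers summed to between 3.95 and 4.86 CPM in the controls and between 4.83 and 5.41 CPM with SMIP34. COL1A1 was higher (from 2.96 to 4.19 CPM, edgeR quasi-likelihood adjusted p = 0.0151, passing in 15 of the 18 fits). It was 1 of the 2 tested markers of this list, and the other, with a log2 fold change of -0.54, did not pass.

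The genes with the profile most like that of a member over the 6 libraries were sought among 12604 genes whose mean level reached 1 CPM, by the root mean square difference of log2 CPM relative to the control mean. For IRF1 these were RND3 (difference 0.033) and UBR4 (0.034), with log2 fold changes of 0.51 and 0.53. Those for IRF7 were the hairpin row of the microRNA gene MIR4321 (0.040) and TLE3 (0.069), and those for IRF5 were VPS13A (0.033) and ZNF83 (0.039). The libraries fall into the control and the treated group only, so that many genes with a like change have a like profile.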

How the data were processed

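The authors deposited, for each of 6 libraries, estimated counts (fractional read counts) per gene without normalization. Per the file headers, featureCounts 1.5.0-p1 had counted reads on the exons of the UCSC hg19 genes by strand, with a minimum mapping quality of 2, dividing reads that mapped to several places or genes into fractions. The submitters' processing notes name HISAT2, while the methods of the study name tophat2 and HTSeq. Totals ran from 19562711 to 22014835 counts. Values were rounded, filtered with filterByExpr and scaled by TMM, and tested with the quasi-likelihood method of edgeR 4.0.16 (R 4.3.3) with Benjamini-Hochberg adjustment over 13408 genes. Standard errors came from the F statistic, and log2 CPM used a prior count of 2. Single values per library were compared with exact two-sided permutation tests. The limit for a count of 0 (3 counts) covers counting error only. On simulated data for SMIP34 against control (13408 genes), 95 of 100 genes changed by 0.5 on the log2 scale and 100 of 100 changed by 1 were recovered.

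The alternatives were DESeq2 1.42.0, voom of limma 3.58.1, the legacy method, other scalings and filters, length offsets (loess span 0.3), rounding down, the replicate number as a block and leaving out each library. The members and gene lists were chosen with earlier results of these data known. The text names the members, other family genes, the genes of lists of at most 5, textbook genes of the pathway, and the 2 largest increases and decreases per list among called genes of at least 1 CPM. KRT8, KRT18, EPCAM, PAX8, PTPRC and CD3E were named as defining markers, and some other genes to spell out counts. Where a list is said to have genes higher or lower, the threshold was an adjusted p-value of 0.05 over all genes. Shares of lists and of all genes were not matched for exon length. Promoters came from RefSeq (GRCh38.p14) and were not lined up with hg19. Some family genes are not reported here. Figures were drawn with matplotlib 3.10.9.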

Additional observations from a re-analysis of the deposited data

How the results depend on the processing

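IRF1 and STAT3 passed the test in all 18 fits and kept their direction. Of the 8 members, 5 were called in the reported fit, 3 with DESeq2 (IRF5 and IRF7 were lost), and between 3 and 5 when each library was left out in turn, with 3 without control replicate 2 or SMIP34 replicate 1. Without SMIP34 replicate 2 the count was 4, but IRF2 and IRF5 were lost and IRF9 was called lower, so that 3 of the 5 calls held. The number past the fold limit was 1, and 2 with library size only as the scaling and with length offsets, where IRF7 joined IRF1, and it ran from 1 to 2 with each library left out, at 2 (IRF1 and IRF7) without control replicate 1 or 3 or SMIP34 replicate 2 or 3. Leaving out a library leaves 2 in its group, which lowers the power. The sign of IRF3 was not stable (-0.017 to 0.037 with a library left out). TYK2 was at -0.0065 with upper-quartile scaling, -0.020 with length offsets and -0.022 to 0.039 with a library left out, B2M was at 0.054 with length offsets, and HLA-B ran from -0.21 to 2.22 with a library left out. The cause was not tested. The share of IRF1 differed by 4.16 percentage points on raw counts and by 2.38 to 2.92 with a library left out.

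With the replicate number as a block, the same number of members, 5, was called, and 4432 genes in all against 4645. Deviations of libraries with the same number had correlations across genes of -0.028, 0.033 and -0.011, and were not used for pairing. Depth limits IRF7 most, with at most 90 counts per library.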

Other observations

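Some mRNAs for proteins that bind the members also changed. Of the 3 genes of IRF2-binding corepressors, IRF2BP2 rose from 70.8, 74.1 and 72.7 CPM in the controls to 86.4, 89.3 and 87.1 CPM in treated libraries (log2 fold change 0.27, edgeR quasi-likelihood adjusted p = 2.61e-06), while IRF2BPL and IRF2BP1 had log2 fold changes of 0.043 and -0.040 (adjusted p = 0.386 and 0.485). Among 9 coregulators of STAT3, 5 passed as higher and 1 as lower, or 55.6% and 11.1%, against 17.4% and 17.2% of all genes. EP300, an acetyltransferase that modifies STAT3, rose from 72.9, 67.5 and 69.0 CPM to 91.0, 94.6 and 85.6 CPM (log2 fold change 0.37, adjusted p = 9.82e-08), and the AP-1 subunit JUN had a log2 fold change of 1.37. NDUFA13, a subunit of respiratory complex I that also binds and inhibits STAT3, fell from 226, 235 and 209 CPM to 196, 198 and 203 CPM (log2 fold change -0.17, adjusted p = 0.000454), and with length offsets it was at -0.043 (adjusted p = 0.237). PELP1, the target of SMIP34 and a known partner of STAT3, was at 133, 146 and 138 CPM in the controls and 158, 159 and 151 CPM with SMIP34 (log2 fold change 0.16, adjusted p = 0.000746). These are mRNA levels, whereas the study reports by Western blotting that SMIP34 lowers the PELP1 protein and speeds its degradation.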
